A study of Mus musculus with 15 samples.

Results

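Cell cycle and DNA replication genes were followed as a list of 43 genes in tibialis anterior muscle (TA) and heart of dystrophic mice. The list was named gene by gene from textbook roles, without a rule on measured values but with earlier results of these data known. All 43 were found among the 56980 genes of the deposited table by matching Ensembl identifiers to mouse gene symbols. By role, it holds 6 cyclins and their kinase, 3 transcription factors, 8 origin licensing genes, 5 genes of the replication clamp and nucleotide supply, 8 mitotic kinase, checkpoint and anaphase genes, 3 centromere and kinetochore genes, 6 spindle and cytokinesis genes, and 4 genes of chromatin and the nuclear envelope.

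A cell that divides copies its DNA in S phase and separates the copies in mitosis. Cyclins switch on cyclin-dependent kinases in order, MCM helicases are loaded on origins and unwind DNA, the PCNA clamp holds the polymerases, and ribonucleotide reductase and thymidylate enzymes supply nucleotides. Aurora and Polo-like kinases, kinesins and the spindle checkpoint then move and count the chromosomes before the anaphase-promoting complex starts their separation. Transcripts of these genes accumulate in cycling cells, and their sum in a tissue is a common readout of proliferation. Mature muscle fibres and adult cardiomyocytes hardly divide. In dystrophic muscle, satellite cells, the stem cells of muscle fibres, divide to replace damaged fibres, and leukocytes and fibroblasts can divide in either tissue.

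Bulk RNA-seq was made from 15 DBA/2J-mdx mice, which lack dystrophin, with each library from 1 mouse and 1 tissue. TA came from mice treated from 3 to 5 months of age, 4 with vehicle (2 males and 2 females) and 4 with dasatinib and quercetin (D + Q), all labelled male. Hearts came from mice treated from 12 to 16 months of age, 4 with vehicle (2 males and 2 females) and 3 with D + Q (2 labelled female and 1 labelled male), and treatment was given 2 times per week in all groups. Dasatinib is a tyrosine kinase inhibitor and quercetin a plant flavonoid, used together to remove senescent cells, and no healthy mice were among these libraries. Tissue, age and length of treatment differed together, so their parts in a difference between TA and heart cannot be told apart. In the D + Q mice sex differed too, with 4 TA labelled male and 3 hearts that held Xist and almost no Y-linked RNA, so sex and tissue cannot be told apart there either. In bulk tissue, fewer cells of a type and less RNA per cell cannot be told apart either.

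The tissue labels were checked on marker genes. The 7 markers of satellite cells and regenerating fibres, which include the myogenic factors Myod1 and Myog and the embryonic myosin Myh3, summed to 102.5 to 153.0 TPM (a transcript level scaled for gene length and to the same library total) in vehicle-treated TA and to 96.1 to 158.8 TPM in D + Q–treated TA. In hearts this sum was at most 0.452 TPM, with Pax7 and Myf5 at 0 in all 4 vehicle hearts. Myod1 lay at 25.3 to 58.6 TPM in vehicle TA. Leukocyte markers (8 genes) summed to 268.8 to 481.2 TPM in vehicle TA and 140.7 to 240.6 TPM in vehicle hearts, with 6 of them called higher and 2 lower in vehicle TA. Fibroblast markers (6 genes) summed to 1201 to 1672 TPM in vehicle TA and 551.6 to 771.2 TPM in vehicle hearts, with 2 called higher in TA. Endothelial markers (5 genes) summed to 131.9 to 188.0 TPM and 190.3 to 212.9 TPM, with 2 called lower. What part these cells had in the differences given here was not tested. The D + Q heart library labelled male held Xist at 47.2 TPM and Ddx3y at 0.0159 TPM, which goes against its label, and D + Q effects in heart are also given without it for the tested genes whose heart groups did not overlap and for Ccne2, Cenpf and Cdkn1a. Because TPM do not retain sequencing depth, counting error could not be given, and all errors are the spread between mice.

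The 43 genes were detected in every mouse, with 0 of 645 values at 0, and most were low. Pcna was the only gene with a mean of at least 10 TPM over the 15 mice, 24 genes lay between 1 and 10 TPM and 18 lay under 1 TPM. The lowest 5 by mean were Cdc6, Mybl2, Bub1, Cenpe and Aurkb, with means of 0.204 to 0.366 TPM. The mean of log2(TPM + 0.5) over the 43 genes was 0.95 ± 0.31 (SD, n = 4) in vehicle TA, 0.90 ± 0.18 (SD, n = 4) in D + Q TA, 0.86 ± 0.019 (SD, n = 4) in vehicle heart and 0.81 ± 0.043 (SD, n = 3) in D + Q heart. In both sets of mice the means of the list in TA and heart differed by less than the SD of the TA mice, which spread more widely than the hearts.

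**Figure D1:**
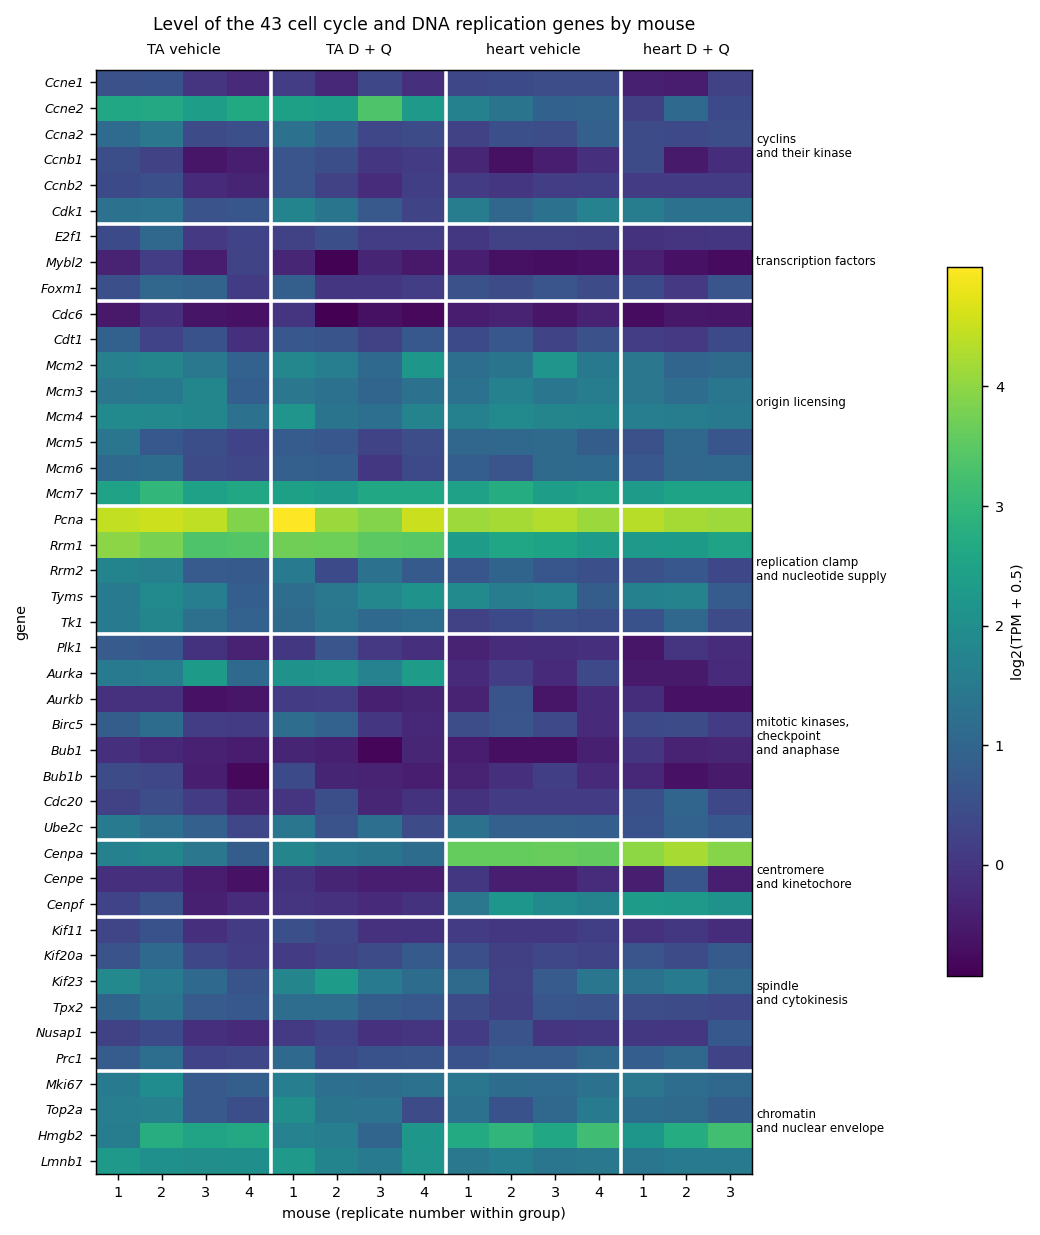
Level of each of the 43 genes (rows, grouped by role) in each of the 15 mice (columns, grouped by tissue and treatment), as log2(TPM + 0.5) in colour. Pcna is the brightest row in every TA mouse and vehicle heart, Cenpa and Cenpf are brighter in the heart columns, and Aurka, Ccne2 and Rrm1 are brighter in the TA columns.

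TA was compared with heart in the vehicle-treated mice first, to ask whether muscle that regenerates holds more cell cycle RNA than old heart. Of the 39 genes that were high enough to test (3 or more of the 15 mice at 0.5 TPM or above), 5 were higher in TA (Aurka, Ccne2, Rrm1, Tk1 and Lmnb1), 2 were lower (Cenpa and Cenpf) and 32 were not called. A gene was called at a Benjamini-Hochberg adjusted p under 0.05 from limma over all genes tested and an absolute log2 fold change above 0.5. Over all 17868 genes tested, 22.6% were called higher in TA and 14.1% lower, against 12.8% and 5.13% of the tested cell cycle genes. The median log2 fold change of the 39 genes was 0.030, beside 0.16 over all genes, and fold changes ran from -2.18 for Cenpa to 1.59 for Aurka. Median-of-ratios scaling moved the median over all genes from 0.16 to -0.0036 and the calls over all genes from 4038 higher and 2518 lower to 2910 and 3313, while 4 cell cycle genes stayed called higher (all but Lmnb1) and Cenpa and Cenpf stayed called lower. Mybl2, Cdc6, Bub1 and Cenpe were too low to be tested.

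The same contrast in the D + Q–treated mice used other animals. There 4 of 39 genes were higher in TA (Aurka, Ccne2, Rrm1 and Tpx2) and 4 were lower (Cenpa, Cenpf, Hmgb2 and Cdc20), with 21.4% and 15.9% of all genes called in these directions. The 5 genes called in the same direction in both sets of mice were Aurka, Ccne2, Cenpa, Cenpf and Rrm1, which is 71.4% of the 7 calls in vehicle mice and 62.5% of the 8 calls in D + Q mice. Over all genes these shares were 80.6% and 79.2%. Median-of-ratios scaling moved the calls over all genes in D + Q mice from 3824 higher and 2847 lower to 3257 and 3475, and those of the list from 4 and 4 to 3 and 4, with Tpx2 lost. The fold changes had the same direction in both sets of mice for 29 of 39 genes (74.4%) and for 84.2% of all genes. With the replicate number as a block, or with sex read from expression as a covariate, the calls lower in TA fell from 4 to 2, Cenpa and Cenpf, and Tpx2 lost its call higher in TA (adjusted p = 0.123 and 0.121). Over all genes the calls lower in TA fell from 2847 to 1558 and 1889 in these fits.

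**Figure D2:**
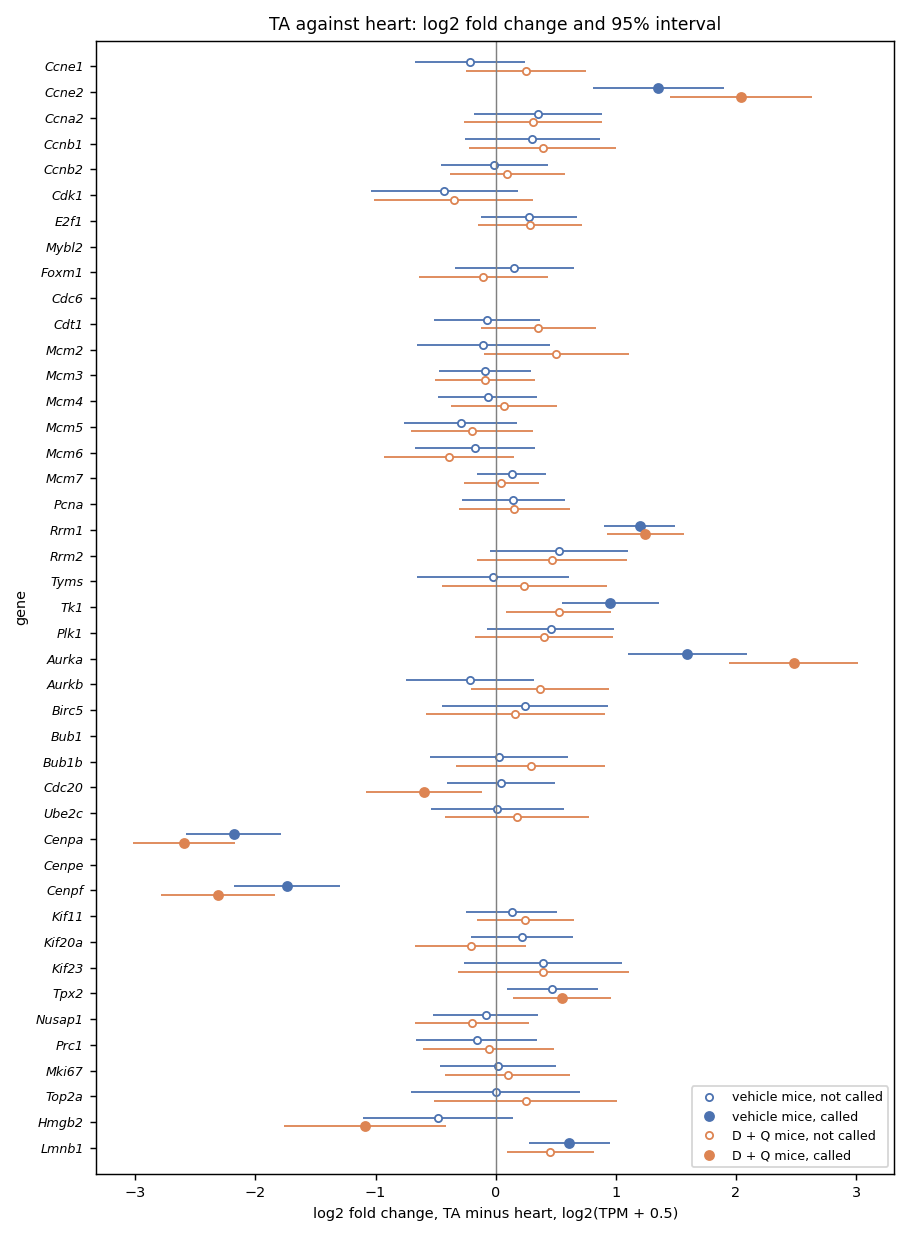
Log2 fold change of each gene between TA and heart (horizontal axis, above 0 is higher in TA) with its 95% interval, in vehicle mice (blue) and D + Q mice (orange), with filled points for called genes and no point for the 4 genes not tested. Cenpa and Cenpf stand at the left in both sets of mice, Aurka, Ccne2 and Rrm1 at the right, and the intervals of most other genes cross 0.

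D + Q was then compared with vehicle within each tissue, to ask whether the treatment moved cell cycle RNA. In TA, 0 of 37 genes tested were called higher and 0 lower by limma, and all 37 adjusted p-values were 0.999. Over all 16298 genes, 0% were called in either direction. With DESeq2 on read counts, the study called genes in both directions in TA and in heart at the same cut-offs. The present fits on TPM called fewer, so 0 calls here cannot be read as no effect of D + Q. The D + Q mice were all labelled male, and with labelled sex as the covariate or with males alone the count for the list was again 0 in both directions. The count over all genes was 0 there too. At an unadjusted p under 0.05, 0 cell cycle genes were higher and 2 were lower (Hmgb2 and Foxm1), where 0.638% of all genes were higher and 2.36% lower. The fold changes lay below 0 for 25 of the 37 genes (67.6%) and for 66.4% of all genes. With median-of-ratios scaling, the median over all genes moved from -0.072 to 0.0029, and 20 of the 37 genes (54.1%) lay below 0. In heart, 0 of 34 genes tested were called in either direction by limma, with 0.105% of all 16132 genes called higher and 0.211% lower. At an unadjusted p under 0.05, 3 genes were higher in D + Q hearts (Cenpa, Cdc20 and Cenpf) and 2 were lower (Ccne1 and Mcm4), where 9.65% of all genes were higher and 7.99% lower. The fold changes lay below 0 for 23 of the 34 genes (67.6%) and for 50.5% of all genes. Without the library of the doubtful sex label, 20 of the 34 genes (58.8%) lay below 0 and 7 changed direction. With sex read from expression as the covariate, 23 lay below 0 and 4 changed direction. The share over all genes was not taken in these fits. The difference of the D + Q effect between TA and heart was called for 0 of 39 genes, with 0.0448% and 0.0168% of all genes called. At an unadjusted p under 0.05, 1 gene was higher, Aurka, with a difference of 0.88 (SE 0.34, adjusted p = 0.831), and 0 were lower, where 1.85% of all genes were higher and 3.71% lower. Aurka was too low to be tested in heart alone. The tissue contrasts and the treatment contrasts share their vehicle mice, so their values are given side by side and were not correlated.

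**Figure D3:**
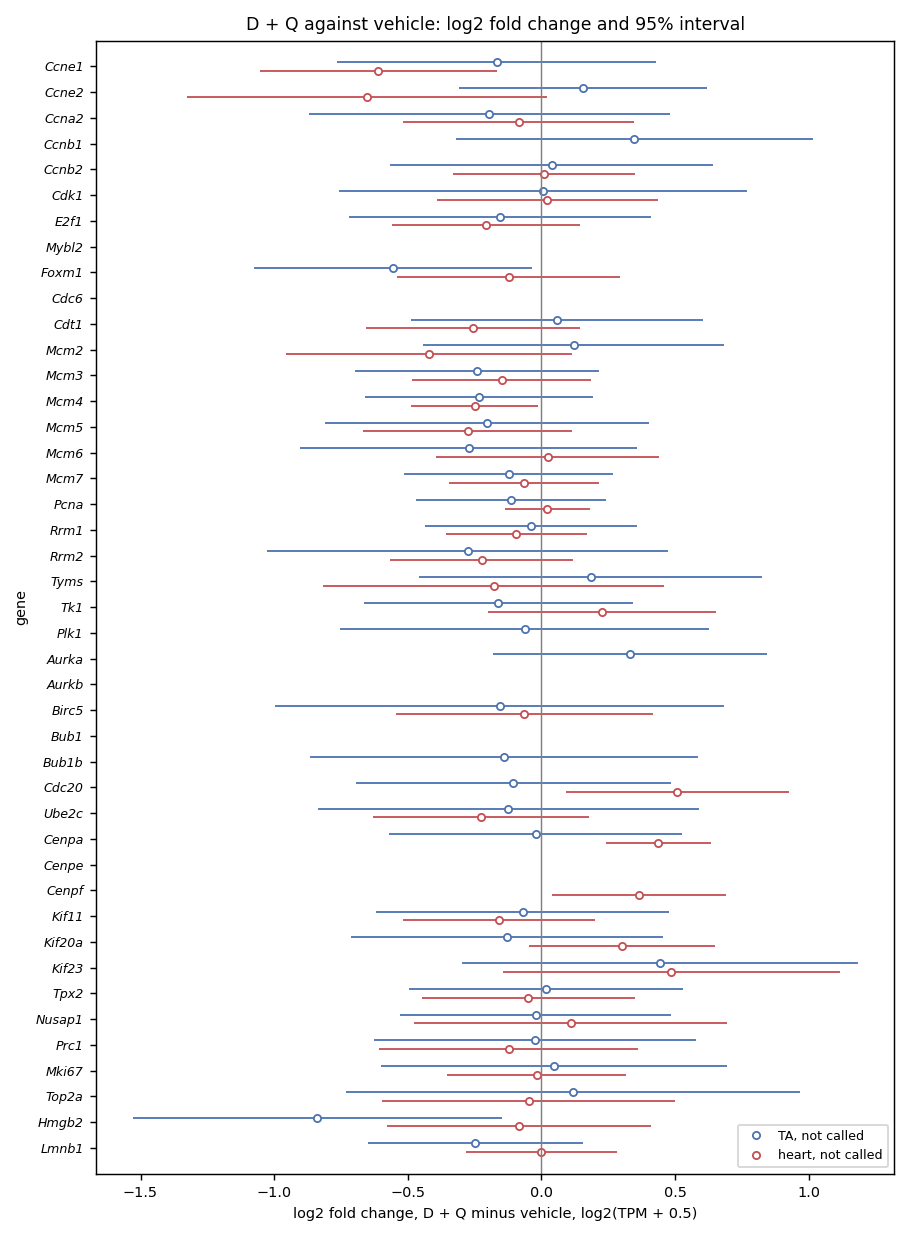
Log2 fold change of each gene between D + Q and vehicle mice (horizontal axis, above 0 is higher with D + Q) with its 95% interval in TA (blue) and heart (red), with all points open because none was called and no point where a gene was too low to be tested. Intervals in heart are mostly narrower than those in TA, and Cenpa in heart is the gene whose interval lies farthest from 0 relative to its width.

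Promoters were read for the genes that differed most between the tissues and for the proliferation markers Mki67 and Top2a, since cell cycle promoters are known for a few short motifs: the CCAAT box bound by NF-Y, the cell cycle genes homology region (CHR) bound by the DREAM complex, and the E2F site. RefSeq promoters of GRCm38.p6, 300 bases with 250 before and 50 after the start, were at hand for 35 of the 43 genes in 37 windows. No entry was found for Aurkb, Ccna2, Ccne2, Foxm1, Kif20a, Lmnb1, Mcm4 and Tpx2. On either strand, CCAAT was in 28 of 37 windows (75.7%) and in 37.4% of all 32851 promoters in the table. A CHR, searched as TTTGAA or TTTAAA, was in 24 of 37 windows (64.9%) and in 27.6% of all promoters. An E2F site, searched as TTTCGCGC or TTTGGCGC, was in 6 of 37 windows (16.2%) and in 0.813% of all promoters, and both forms can overlap on opposite strands. TATAAA was in 0 of 37 windows and in 13.6% of all promoters. A match is a description of letters, and 5 genes (Cdc6, E2f1, Mybl2, Nusap1 and Tyms) held none of these motifs in their windows.

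The 150 bases before the start, 5′ to 3′ on the strand of the gene, follow for 7 genes, with CCAAT, CHR and E2F letters in capitals wherever they lie whole within the stretch on either strand. Their positions in GRCm38.p6 are chr5:30666736-30666885 (plus strand) for Cenpa, chr1:189688087-189688236 (minus) for Cenpf, chr2:172370571-172370720 (minus) for Aurka, chr7:102441545-102441694 (plus) for Rrm1, chr11:117826015-117826164 (minus) for Tk1, chr7:135716380-135716529 (minus) for Mki67 and chr11:99024190-99024339 (minus) for Top2a.
Cenpa: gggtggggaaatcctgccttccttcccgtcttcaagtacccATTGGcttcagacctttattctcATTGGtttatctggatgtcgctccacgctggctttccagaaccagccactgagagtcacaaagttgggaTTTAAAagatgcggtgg
Cenpf: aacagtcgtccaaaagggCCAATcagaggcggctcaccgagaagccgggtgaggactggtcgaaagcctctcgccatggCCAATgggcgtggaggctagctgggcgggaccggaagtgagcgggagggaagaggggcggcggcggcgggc
Aurka: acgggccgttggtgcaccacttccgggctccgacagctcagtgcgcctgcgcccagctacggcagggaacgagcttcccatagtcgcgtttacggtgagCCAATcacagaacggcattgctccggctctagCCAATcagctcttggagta
Rrm1: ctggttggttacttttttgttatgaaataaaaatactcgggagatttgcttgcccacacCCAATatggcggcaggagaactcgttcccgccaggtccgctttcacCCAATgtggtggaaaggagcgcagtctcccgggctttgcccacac
Tk1: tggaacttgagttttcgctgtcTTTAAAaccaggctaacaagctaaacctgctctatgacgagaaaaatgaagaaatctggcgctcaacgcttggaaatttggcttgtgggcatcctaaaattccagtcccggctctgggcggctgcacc
Mki67: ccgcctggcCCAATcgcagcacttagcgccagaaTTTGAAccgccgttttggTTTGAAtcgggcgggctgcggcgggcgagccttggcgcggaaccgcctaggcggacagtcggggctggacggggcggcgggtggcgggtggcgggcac
Top2a: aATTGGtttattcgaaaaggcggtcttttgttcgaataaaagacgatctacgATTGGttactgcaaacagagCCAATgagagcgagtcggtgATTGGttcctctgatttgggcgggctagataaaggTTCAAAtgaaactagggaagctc
Cenpa and Cenpf, higher in heart, and Aurka and Rrm1, higher in TA, each carried a pair of CCAAT boxes in this stretch, read on the other strand as ATTGG in Cenpa, and Cenpa also carried a CHR. Tk1 carried a CHR and no CCAAT box. Mki67 and Top2a, not called between the tissues, carried both motifs. In the whole windows of 300 bases, Cenpf and Aurka held a CHR too, outside the printed stretch, and Rrm1 held none.

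Among the cyclins and their kinase, Ccne2, cyclin E2 of the G1 to S transition, was the gene that differed between tissues (ENSMUSG00000028212, chr4:11190303-11204947 in GRCm39). It was at 5.58, 5.76, 4.67 and 5.84 TPM in vehicle TA and at 2.68, 2.04, 1.38 and 1.43 TPM in vehicle heart. In D + Q mice it was at 4.89, 4.69, 9.80 and 4.25 TPM in TA and at 0.644, 1.63 and 0.823 TPM in heart. Every TA mouse lay above every heart, and the TA mean was 2.90 times the heart mean with vehicle and 5.72 times with D + Q. The log2 fold change was 1.35 (SE 0.26, adjusted p = 4.93e-04) in vehicle mice and 2.04 (SE 0.28, adjusted p = 2.32e-05) in D + Q mice, and the first call was lost with the replicate block (1.20, adjusted p = 0.0969). D + Q TA replicate 3, at 9.80 TPM, stood apart from the other TA mice. Ccne2 overlaps Ints8 on the other strand, which was also higher in vehicle TA (mean 14.8 TPM against 8.90 TPM), and whether the authors' quantification used strand is not given in the sources used here. Of the 43 genes, 13 overlap a protein-coding gene with a mean of at least 0.5 TPM in a group. Besides those whose overlaps are described with their values, these are Ccne1, Ccna2, Cdc20, Foxm1, Kif20a, Lmnb1 and Prc1. With D + Q in heart, Ccne2 had a log2 fold change of -0.65 (SE 0.29, adjusted p = 0.295) and the groups overlapped. Without the library of the doubtful sex label it was -0.48 (adjusted p = 0.653).

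Ccne1, cyclin E1, was not called between the tissues, and its difference from Ccne2 was not tested. It was at 0.947, 0.982, 0.491 and 0.354 TPM in vehicle TA and 0.788, 0.825, 0.894 and 0.881 TPM in vehicle heart, with 0.611, 0.327, 0.788 and 0.422 TPM in D + Q TA. In D + Q hearts it was at 0.259, 0.219 and 0.655 TPM, below all 4 vehicle hearts, with the library of the doubtful sex label nearest to them. The log2 fold change with D + Q in heart was -0.61 (SE 0.19, adjusted p = 0.169), and -0.88 (adjusted p = 0.264) without that library, neither of which passed. In all, 11.8% of the tested cell cycle genes were lower without overlap in D + Q hearts beside 5.57% of all genes.

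Cyclins A and B, which drive S phase and mitosis with the kinase Cdk1, did not differ between the tissues beyond the spread of the mice. Ccnb1, cyclin B1, was at 0.920, 0.683, 0.177 and 0.237 TPM in vehicle TA, 1.06, 0.907, 0.507 and 0.568 TPM in D + Q TA, 0.316, 0.136, 0.245 and 0.429 TPM in vehicle heart and 0.839, 0.203 and 0.398 TPM in D + Q heart. Its groups overlapped in every comparison, with log2 fold changes of 0.31 (95% interval -0.26 to 0.87) between vehicle TA and heart and 0.35 (-0.32 to 1.02) with D + Q in TA. Ccna2, Ccnb2 and Cdk1 had log2 fold changes of 0.35, -0.011 and -0.43 between vehicle TA and heart, none of which passed. Cdk1 lies across Ank3 on the other strand, which was at a mean of 55.6 TPM in vehicle TA and 29.7 TPM in vehicle heart.

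Of the transcription factors that drive these genes, E2f1 acts at the start of S phase, and Mybl2 and Foxm1 act later, toward mitosis. Foxm1 was at 0.937, 1.55, 1.44 and 0.587 TPM in vehicle TA and 1.31, 0.502, 0.503 and 0.614 TPM in D + Q TA. Replicate 1 lay apart from the other 3 D + Q mice, and the groups overlapped. The log2 fold change was -0.56 (SE 0.23, unadjusted p = 0.0387, adjusted p = 0.999). In heart, Foxm1 was at 0.966, 0.838, 1.04 and 0.832 TPM with vehicle and 0.812, 0.532 and 1.05 TPM with D + Q, and between vehicle TA and heart the log2 fold change was 0.16 (SE 0.23, adjusted p = 0.622). E2f1 was lower in all 3 D + Q hearts (0.460 to 0.506 TPM) than in all 4 vehicle hearts (0.522 to 0.679 TPM), with a log2 fold change of -0.21 (SE 0.15, adjusted p = 0.514) and of -0.28 (adjusted p = 0.618) without the library of the doubtful sex label. In D + Q mice all 4 TA values of E2f1 lay above all 3 hearts, and the tissue difference of 0.28 (SE 0.20, adjusted p = 0.280) did not pass either. Mybl2 was at most 0.712 TPM in any mouse and was not tested.

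The origin licensing genes, Cdc6 and Cdt1 and the subunits of the MCM2-7 helicase that they load, were not called in any comparison for the 7 that were tested. Log2 fold changes between vehicle TA and heart ran from -0.29 for Mcm5 to 0.13 for Mcm7. In D + Q mice they ran from -0.39 to 0.51, the highest for Mcm2, whose TA mean was 1.60 times its heart mean. Mcm7 was the highest of them, at 5.14, 7.47, 5.04 and 5.61 TPM in vehicle TA, 4.88, 4.58, 5.53 and 5.61 TPM in D + Q TA, 4.99, 6.15, 4.69 and 5.07 TPM in vehicle heart and 4.50, 5.22 and 5.18 TPM in D + Q heart. All groups overlapped, and the 95% interval of the vehicle TA to heart difference was -0.16 to 0.42. Mcm7 lies across Cops6 and Ap4m1 on the other strand, and Cops6 was at a mean of 35.7 TPM in vehicle TA. Mcm4 was at 2.71, 3.23, 2.92 and 2.83 TPM in vehicle heart and 2.53, 2.49 and 2.24 TPM in D + Q heart. All 3 D + Q hearts lay below all 4 vehicle hearts, with a log2 fold change of -0.25 (SE 0.10, adjusted p = 0.265) and of -0.25 (adjusted p = 0.534) without the library of the doubtful sex label. In TA, Mcm4 was at 3.17, 3.16, 2.97 and 1.93 TPM with vehicle and 3.96, 2.03, 1.85 and 2.82 TPM with D + Q, and the groups overlapped, with a log2 fold change of -0.24 (SE 0.19, adjusted p = 0.999).

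**Figure D4:**
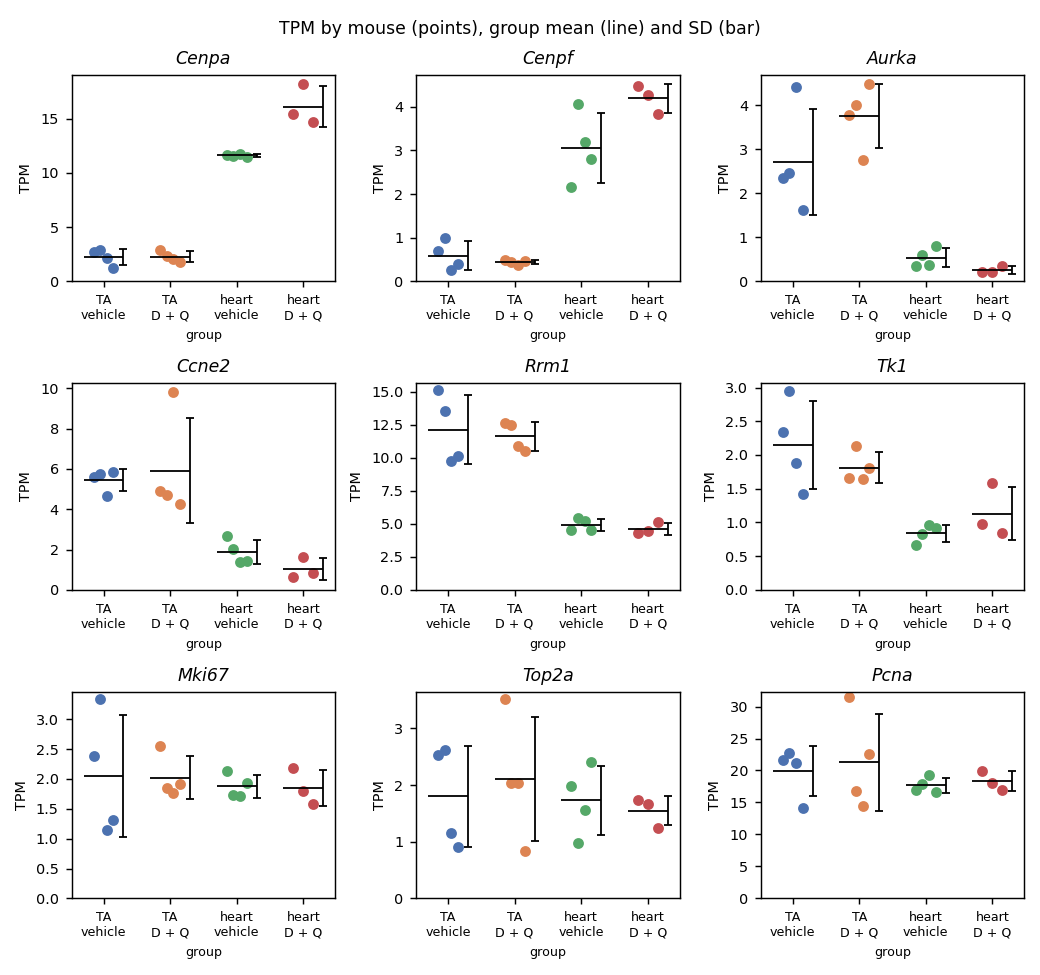
TPM in each mouse (points) for 9 genes in the 4 groups, with the group mean as a line and the SD as a bar; each vertical axis starts at 0 and has its own scale. Cenpa and Cenpf lie higher in both heart groups, Aurka, Ccne2, Rrm1 and Tk1 higher in TA, and Mki67, Top2a and Pcna overlap across all groups.

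In the replication clamp and nucleotide supply, Rrm1 set TA apart. It encodes the large subunit of ribonucleotide reductase, which makes deoxyribonucleotides (ENSMUSG00000030978, chr7:102090890-102119709 in GRCm39). Rrm1 was at 15.1, 13.5, 9.76 and 10.1 TPM in vehicle TA and 12.6, 12.5, 10.9 and 10.5 TPM in D + Q TA. In heart it was at 4.53, 5.45, 5.18 and 4.55 TPM with vehicle and 4.28, 4.44 and 5.11 TPM with D + Q. The lowest TA mouse, at 9.76 TPM, lay above the highest heart, at 5.45 TPM, and the log2 fold change was 1.20 (SE 0.14, adjusted p = 4.39e-06) in vehicle mice and 1.24 (SE 0.15, adjusted p = 7.28e-06) in D + Q mice. This call held in all 26 settings tried for each contrast, from 1.02 to 1.50 on the log2 scale in vehicle mice. The 26 include the main fit and fits without a mouse of the other treatment, which cannot move the fold change. With D + Q its log2 fold changes were -0.038 (95% interval -0.43 to 0.36) in TA and -0.093 (-0.36 to 0.17) in heart.

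Its partner Rrm2, the small subunit whose level follows S phase, was not called, with a log2 fold change of 0.53 (SE 0.27, adjusted p = 0.129) between vehicle TA and heart. Rrm1 thus differed between tissues while Rrm2 did not pass. The difference between these 2 genes was not tested. Tk1, the cytosolic thymidine kinase, was at 2.34, 2.95, 1.88 and 1.42 TPM in vehicle TA and 0.665, 0.827, 0.955 and 0.913 TPM in vehicle heart. It was at 1.66, 2.13, 1.64 and 1.81 TPM in D + Q TA and 0.975, 1.58 and 0.845 TPM in D + Q heart, so that TA lay above heart without overlap in both sets of mice. The log2 fold change was 0.95 (SE 0.19, adjusted p = 7.12e-04) in vehicle mice and 0.52 (SE 0.20, adjusted p = 0.0506) in D + Q mice, where it just missed the threshold. Tk1 overlaps Syngr2 and Afmid on the other strand, and Syngr2 was also higher in TA (mean 149.7 TPM against 66.7 TPM with vehicle).

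Pcna, the sliding clamp, was the most abundant gene of the list and did not separate the tissues. It was at 21.6, 22.7, 21.2 and 14.2 TPM in vehicle TA, 31.4, 16.8, 14.4 and 22.6 TPM in D + Q TA, 16.9, 17.9, 19.3 and 16.7 TPM in vehicle heart and 20.0, 18.0 and 16.9 TPM in D + Q heart. Its values in TA ran on both sides of the hearts, and the log2 fold change of 0.15 between vehicle TA and heart had a 95% interval of -0.28 to 0.57. With D + Q it was -0.11 (-0.47 to 0.24) in TA and 0.022 (-0.14 to 0.18) in heart, the narrowest interval of the list in that tissue. The D + Q mean in TA was 1.07 times the vehicle mean, and the fold change in TA without the surrogate variable was 0.055 (adjusted p = 0.999), so its direction there rests on that covariate. Tyms, thymidylate synthase, was likewise not called in any comparison. Pcna, Tyms, Ccnb1 and Ccnb2 have pseudogenes, among which the authors' quantification could split reads.

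Among mitotic kinases, checkpoint and anaphase genes, Aurka, the Aurora kinase of spindle poles, differed most between the tissues (ENSMUSG00000027496, chr2:172198109-172212849 in GRCm39). It was at 2.35, 2.46, 4.42 and 1.63 TPM in vehicle TA and 3.77, 4.01, 2.77 and 4.48 TPM in D + Q TA. Hearts held it at 0.355, 0.606, 0.362 and 0.805 TPM with vehicle and 0.210, 0.206 and 0.357 TPM with D + Q. Every TA mouse lay above every heart, and the TA mean was 5.10 times the heart mean with vehicle and 14.6 times with D + Q. In heart alone Aurka was too low to be tested, and it entered the tissue contrasts through its TA values. These ratios rest on heart values near the floor, and the 0.5 TPM added before taking logs makes the log2 fold changes smaller. The log2 fold change was 1.59 (SE 0.23, adjusted p = 4.51e-05) in vehicle mice and 2.48 (SE 0.25, adjusted p = 1.05e-06) in D + Q mice, and both calls held in all 26 settings tried. Fitted within TA alone, D + Q gave 0.33 (SE 0.23, adjusted p = 0.999), with groups that overlapped. Aurka overlaps Cstf1 and Fam210b on the other strand, at means of 7.17 and 3.37 TPM in vehicle TA, of which Cstf1 had a log2 fold change of 0.56 in the same tissue contrast.

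Of the other mitotic kinases, those tested were not called between the tissues, and their difference from Aurka was not tested. Aurkb, the Aurora kinase of the chromosomal passenger complex, was at 0.445, 0.438, 0.143 and 0.178 TPM in vehicle TA and 0.294, 1.02, 0.175 and 0.366 TPM in vehicle heart. It was at 0.596, 0.605, 0.256 and 0.302 TPM in D + Q TA and 0.397, 0.141 and 0.140 TPM in D + Q heart, and the groups overlapped in both sets of mice. The log2 fold change was -0.22 (SE 0.25, adjusted p = 0.515) in vehicle mice and 0.37 (SE 0.27, adjusted p = 0.293) in D + Q mice. Plk1, Polo-like kinase 1, and Birc5, survivin, had 0.46 (SE 0.25, adjusted p = 0.154) and 0.25 (SE 0.32, adjusted p = 0.572) in vehicle mice. The TA mean of Plk1 was 2.04 times its heart mean with vehicle and 1.80 times with D + Q, and neither contrast was called. All heart values of Plk1 lay under 0.5 TPM, so it entered the tissue contrasts through its TA values and its ratios rest on values near the floor. Bub1b of the spindle checkpoint and Ube2c of the anaphase-promoting complex had log2 fold changes of 0.030 and 0.015. Ube2c lies across Tnnc2, a fast-muscle troponin at a mean of 3089 TPM in vehicle TA and 0.235 TPM in vehicle heart, and its own level still overlapped between the tissues (0.762 to 2.42 TPM in vehicle TA, 1.30 to 1.95 TPM in vehicle heart).

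Cdc20, the activator of the anaphase-promoting complex, was among the 3 genes with a low unadjusted p in D + Q hearts. It was at 0.463, 0.589, 0.594 and 0.564 TPM in vehicle heart and 0.929, 1.49 and 0.774 TPM in D + Q heart, higher in all 3 D + Q mice than in all 4 vehicle mice, and the log2 fold change was 0.51 (SE 0.18, adjusted p = 0.204), or 0.63 (adjusted p = 0.376) without the library of the doubtful sex label. In TA it was at 0.673, 0.879, 0.586 and 0.289 TPM with vehicle and 0.468, 0.919, 0.321 and 0.452 TPM with D + Q, with overlap. Cdc20 was called lower in D + Q TA than in D + Q heart, at -0.59 (SE 0.23, adjusted p = 0.0460), but the values of these groups overlapped. The call was lost in 11 of 15 fits that left out 1 mouse, up to an adjusted p of 0.213 without D + Q heart replicate 2, and it was kept without D + Q TA replicate 2, without vehicle TA replicates 2 or 4 and without D + Q heart replicate 3. Fits without a vehicle mouse left the fold change at -0.59 and could move only its error and adjusted p. The call was also lost with labelled sex (adjusted p = 0.129) or sex read from expression (0.179) as a covariate. Bub1, a checkpoint kinase too low to be tested, was also higher in all 3 D + Q hearts (0.296 to 0.512 TPM) than in all 4 vehicle hearts (0.123 to 0.259 TPM). With Cenpa, these were 2 of the 34 tested genes (5.88%) and 1 untested gene that were higher without overlap in D + Q hearts, where 9.63% of all genes tested were.

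The centromere genes went the other way from Aurka. Cenpa encodes the histone H3 variant that marks centromeres (ENSMUSG00000029177, chr5:30824121-30842921 in GRCm39). It was at 2.69, 2.90, 2.16 and 1.26 TPM in vehicle TA and 2.91, 2.32, 2.09 and 1.75 TPM in D + Q TA. In heart it was at 11.7, 11.6, 11.8 and 11.4 TPM with vehicle and 15.5, 18.2 and 14.7 TPM with D + Q. All hearts lay far above all TA mice, the 4 vehicle hearts lay close together, and all 3 D + Q hearts lay above them. The heart mean was 5.15 times the TA mean with vehicle and 7.11 times with D + Q. The log2 fold change of TA against heart was -2.18 (SE 0.18, adjusted p = 1.23e-07) in vehicle mice and -2.60 (SE 0.20, adjusted p = 4.38e-08) in D + Q mice, and both calls held in all 26 settings tried. Over all 15 mice, Cenpa had the third highest mean TPM of the 43 genes.

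With D + Q, Cenpa in heart had a log2 fold change of 0.44 (SE 0.083, 95% interval 0.24 to 0.63), the smallest p of the list in that comparison and an adjusted p of 0.0934, which missed the threshold. The fold change lay between 0.36 and 0.52 in all settings tried. Without the library of the doubtful sex label it was 0.51 (adjusted p = 0.252), and the values of the other D + Q hearts, 15.5 and 18.2 TPM, still lay above all 4 vehicle hearts. Sums of cell type markers differed in the same hearts: 4 atrial markers, 3 of them called lower with D + Q, summed to 381.7 to 427.2 TPM against 862.2 to 4260 TPM with vehicle, 5 red-cell markers to 26.8 to 121.5 TPM against 346.4 to 1231 TPM, 6 fibroblast markers to 444.8 to 518.6 TPM against 551.6 to 771.2 TPM, and 6 cardiomyocyte markers to 25802 to 27316 TPM against 20767 to 22790 TPM. Of the red-cell, fibroblast and cardiomyocyte markers, 0 were called in either direction. The part of these cells in the values of Cenpa was not tested beyond the covariate given next. With the atrial markers as a covariate in place of sex, the log2 fold change was 0.52 for Cenpa (adjusted p = 0.550), 0.98 for Cdc20 (0.576), 1.73 for Cenpf (0.511) and -0.76 for Ccne1 (0.651). Under this covariate the median over all genes moved from -0.0025 to 0.36 and 0 genes were called by limma (1547 had an unadjusted p under 0.05), so these values cannot be read apart from that shift. In TA, D + Q gave Cenpa a log2 fold change of -0.022 (-0.57 to 0.53), and of 0.036 without the surrogate variable. The difference of the D + Q effect between the tissues was -0.42 (SE 0.27, adjusted p = 0.919).

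Cenpf, a large kinetochore protein of late G2 and mitosis, was the other gene higher in heart (ENSMUSG00000026605, chr1:189372752-189420315 in GRCm39). It was at 2.16, 4.07, 3.20 and 2.80 TPM in vehicle heart and 4.48, 4.26 and 3.83 TPM in D + Q heart. In TA it was at 0.707, 0.996, 0.254 and 0.387 TPM with vehicle and 0.497, 0.450, 0.376 and 0.456 TPM with D + Q. No TA mouse reached the lowest heart, and the heart mean was 5.22 times the TA mean with vehicle and 9.42 times with D + Q. In TA alone Cenpf was too low to be tested, and it entered the tissue contrasts through its heart values. These ratios rest on TA values near the floor. The log2 fold change of TA against heart was -1.74 (SE 0.21, adjusted p = 5.80e-06) in vehicle mice and -2.31 (SE 0.22, adjusted p = 6.38e-07) in D + Q mice. D + Q in heart gave 0.37 (SE 0.14, adjusted p = 0.238) with overlapping groups, 0.25 (adjusted p = 0.623) without the library of the doubtful sex label, and 0.19 (adjusted p = 0.659) with sex read from expression. Cenpe, the kinetochore motor, was at most 0.519 TPM in every mouse but D + Q heart replicate 2, at 1.08 TPM, and was not tested. Neither Cenpa nor Cenpf overlaps another expressed gene in GENCODE M39.

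The spindle and cytokinesis genes did not separate the tissues as a role, with log2 fold changes from -0.16 for Prc1 to 0.47 for Tpx2 in vehicle mice. Kif23, the kinesin of the central spindle and the highest of them, was at 3.11, 2.38, 1.64 and 1.02 TPM in vehicle TA and 2.89, 4.62, 2.39 and 1.74 TPM in D + Q TA. Its level in heart was 1.66, 0.655, 1.22 and 2.14 TPM with vehicle and 1.99, 2.38 and 1.62 TPM with D + Q. All 4 groups overlapped, and the log2 fold changes with D + Q of 0.44 in TA and 0.49 in heart had 95% intervals of -0.30 to 1.18 and -0.14 to 1.12. Tpx2, the activator of Aurka at the spindle, was higher in all 4 vehicle TA (1.12 to 2.03 TPM) than in all 4 vehicle hearts (0.641 to 1.08 TPM), but its log2 fold change of 0.47 (SE 0.18, adjusted p = 0.0423) stayed under the minimum. In D + Q mice it passed, at 0.55 (SE 0.19, adjusted p = 0.0298), and this call was lost without D + Q TA replicates 1 or 2 (adjusted p = 0.0754 and 0.0773) and without D + Q heart replicates 1, 2 or 3 (0.0567, 0.0651 and 0.0914). It was also lost with labelled sex (0.0503) or sex read from expression (0.121) as a covariate. With Tpx2, 6 genes lay higher in vehicle TA without overlap (15.4% of those tested) and 2 lower (5.13%), where 25.9% and 15% of all genes did. In D + Q mice 7 genes lay higher without overlap (17.9%) and 2 lower (5.13%), where 26.8% and 19.9% of all genes did. Kif11, the spindle motor, was also below all vehicle hearts in all 3 D + Q hearts, though the groups nearly met (at most 0.517 TPM against at least 0.518 TPM), with a log2 fold change of -0.16 (SE 0.15, adjusted p = 0.638) and of -0.066 (adjusted p = 0.921) without the library of the doubtful sex label.

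Mki67 and Top2a, the proliferation markers most used on tissue, overlapped between TA and heart and were not called in any comparison. Mki67, the chromosome surface protein Ki-67, was at 2.38, 3.35, 1.15 and 1.32 TPM in vehicle TA and 2.55, 1.84, 1.77 and 1.92 TPM in D + Q TA. In heart it was at 2.13, 1.73, 1.72 and 1.93 TPM with vehicle and 2.17, 1.79 and 1.58 TPM with D + Q. The vehicle TA mice lay on both sides of all hearts, and the log2 fold change of TA against heart was 0.017 (95% interval -0.47 to 0.50, adjusted p = 0.960). D + Q gave 0.048 (-0.60 to 0.70) in TA and -0.018 (-0.35 to 0.32) in heart. Top2a, topoisomerase II of S phase and mitosis, was at 2.52, 2.62, 1.16 and 0.912 TPM in vehicle TA and 3.52, 2.03, 2.03 and 0.842 TPM in D + Q TA. Hearts were at 1.99, 0.979, 1.56 and 2.40 TPM with vehicle and 1.74, 1.67 and 1.25 TPM with D + Q, again with overlap of all groups. Its log2 fold change between vehicle TA and heart was 0.0013 (-0.70 to 0.71), and a change within that interval was not detectable with this spread between mice.

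Lmnb1, lamin B1 of the nuclear envelope, whose loss is a known mark of senescent cells, was at 4.36, 3.61, 3.52 and 3.57 TPM in vehicle TA and 4.35, 2.85, 2.42 and 3.99 TPM in D + Q TA. Its heart values were 2.20, 2.61, 2.13 and 2.21 TPM with vehicle and 2.12, 2.41 and 2.35 TPM with D + Q. TA lay above heart without overlap in both sets of mice, narrowly so with D + Q, by 0.61 (SE 0.16, adjusted p = 0.00501) in vehicle mice and 0.45 (SE 0.17, adjusted p = 0.0420) in D + Q mice, where the fold change stayed under the minimum. With D + Q, its log2 fold change was -0.25 (-0.65 to 0.15) in TA and -0.00033 (-0.28 to 0.28) in heart. Hmgb2, a DNA-bending chromatin protein of dividing cells, was at 2.49, 6.26, 5.30 and 5.78 TPM in vehicle TA and 2.75, 2.53, 1.51 and 4.13 TPM in D + Q TA. In heart it was at 5.95, 7.32, 5.62 and 8.58 TPM with vehicle and 4.10, 6.19 and 8.71 TPM with D + Q. Vehicle TA replicate 1 lay with the D + Q mice and the other 3 vehicle mice above them, so the groups overlapped, and the log2 fold change with D + Q in TA was -0.84 (SE 0.31, unadjusted p = 0.0219, adjusted p = 0.999). Hmgb2 was called lower in D + Q TA than in D + Q heart, at -1.09 (SE 0.32, adjusted p = 0.0117). In vehicle mice it was not called, at -0.48 (SE 0.29, adjusted p = 0.202), and the difference between these contrasts was -0.60 (SE 0.43, adjusted p = 0.933). The D + Q call was lost without the D + Q heart of the doubtful sex label (-0.84, adjusted p = 0.0730).

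Mice of a group differed more in TA than in heart for these genes. The median SD of log2(TPM + 0.5) over the 39 tested genes was 0.43 in vehicle TA and 0.19 in vehicle heart, and 0.33 and 0.19 in the D + Q groups. Over all 17868 genes these medians were 0.28 and 0.17 with vehicle and 0.25 and 0.16 with D + Q. The SD was larger in vehicle TA than in vehicle heart for 35 of 39 genes (89.7%) and for 74.7% of all genes. Averaged over the 21 mitosis genes other than Cenpa and Cenpf, log2(TPM + 0.5) was 0.77, 0.87, 0.26 and 0.091 in the 4 vehicle TA mice and 0.83, 0.68, 0.35 and 0.31 in the 4 D + Q TA mice. In hearts it was 0.34, 0.27, 0.27 and 0.43 with vehicle and 0.38, 0.38 and 0.26 with D + Q. In each TA group, replicates 1 and 2 were high and replicates 3 and 4 were low, with the hearts between or near the low mice. The 13 origin, clamp and nucleotide genes averaged 1.81, 1.83, 1.53 and 1.18 in vehicle TA and 1.74, 1.45, 1.34 and 1.59 in D + Q TA. They averaged 1.36, 1.49, 1.49 and 1.35 in vehicle heart and 1.29, 1.37 and 1.25 in D + Q heart. Vehicle TA replicate 4 was the lowest mouse of all on this mean and vehicle TA replicate 2 the highest.

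**Figure D5:**
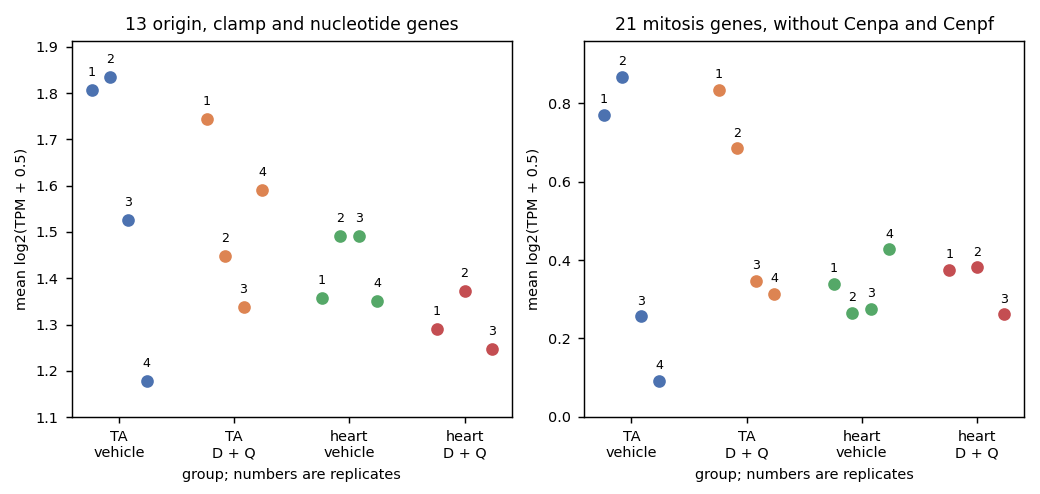
Mean log2(TPM + 0.5) over 13 replication genes (left) and over 21 mitosis genes without Cenpa and Cenpf (right), 1 point per mouse, with the replicate number beside it and the 4 groups along the horizontal axis; the left vertical axis does not start at 0. The TA mice spread from below to above the hearts in both panels, and vehicle and D + Q mice overlap in each tissue.

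The genes around the list were read in 5 further lists of 93 genes in all, of which 78 were tested between the tissues. In vehicle mice 11 were higher in TA (14.1%) and 8 were lower (10.3%), and in D + Q mice 10 were higher (12.8%) and 11 lower (14.1%), beside the shares over all genes given above. Of 9 G1 cyclins, their kinases and pocket proteins, 1 was higher and 3 were lower in vehicle TA. Ccnd2, a D-type cyclin that starts G1, was at 8.70 to 14.4 TPM in vehicle TA and 36.3 to 44.1 TPM in vehicle heart, a log2 fold change of -1.80 (SE 0.19, adjusted p = 1.26e-06). Rb1, the retinoblastoma pocket protein that holds E2F in check, was the 1 higher, at 17.1 to 20.9 TPM against 9.65 to 12.4 TPM. Of 13 E2F and DREAM complex factors, 6 were higher in vehicle TA and 0 lower. Tfdp1, the partner of E2F proteins, had a log2 fold change of 1.03 (SE 0.11, adjusted p = 1.47e-06), and E2f6, a repressor of the E2F family, of 0.90 (SE 0.11, adjusted p = 1.06e-05).

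Of 23 tested replication fork and origin factors, 0 were higher in vehicle TA by limma (1 at an unadjusted p under 0.05, which 32.8% of all genes passed in that direction) and 2 were lower. Gmnn, geminin, the inhibitor of the licensing factor Cdt1, was at 1.67 to 4.74 TPM in vehicle TA and 21.5 to 24.5 TPM in vehicle heart, a log2 fold change of -2.73 (SE 0.21, adjusted p = 3.35e-08). In D + Q mice Gmnn was at 3.01 to 4.01 TPM in TA and 22.4 to 27.1 TPM in heart. Geminin RNA was thus higher in heart like Cenpa and Cenpf, while Cdt1 itself had a log2 fold change of -0.071 (SE 0.21, adjusted p = 0.812). Dut, which clears dUTP, was the other, with a log2 fold change of -0.86 (SE 0.15, adjusted p = 2.11e-04). Of 26 tested further mitosis factors, 1 was higher and 2 were lower in vehicle TA, with log2 fold changes of -1.15 (SE 0.37, adjusted p = 0.0205) for Pttg1, securin, and 0.88 (SE 0.29, adjusted p = 0.0213) for Cenpk, of the inner kinetochore.

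Of 7 cyclin-dependent kinase inhibitors, 3 were higher and 1 was lower in vehicle TA. Cdkn1a, which encodes p21, was at 54.2 to 66.6 TPM in vehicle TA and 8.13 to 18.5 TPM in vehicle heart, a log2 fold change of 2.46 (SE 0.28, adjusted p = 2.92e-06). Cdkn2a, which encodes p16 and ARF, was at 2.11 to 4.48 TPM against 0.256 to 0.424 TPM, a log2 fold change of 2.23 (SE 0.22, adjusted p = 6.26e-07). Every vehicle heart lay under the 0.5 TPM of the filter, which Cdkn2a passed through its TA values. Its fold change thus rests on heart values near the floor. Both inhibitors lay higher in every vehicle TA mouse than in every vehicle heart. With D + Q, 0 of 73 genes of these lists tested in TA and 0 of 68 in heart were called by limma, and 1 and 4 had an unadjusted p under 0.05, where 0.638% of all genes were higher and 2.36% lower in TA and 9.65% and 7.99% in heart. Cdkn1a was at 21.3 to 26.1 TPM in D + Q hearts, above all vehicle hearts, with a log2 fold change of 1.15 (SE 0.26, adjusted p = 0.112) and of 0.87 (adjusted p = 0.381) without the library of the doubtful sex label.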

How the data were processed

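RNA from TA and heart of 15 DBA/2J-mdx mice was sequenced in bulk, 1 library per mouse, in 4 groups taken from the labels. Per the study's methods and processing notes, the authors trimmed reads with Trim Galore 0.6.10, quantified them with Salmon 1.10.3 against GRCm39 and summarised transcripts per gene, and they deposited TPM, with 56980 genes in the table. The values of every library add up to 1000000, and 21830 to 25378 genes were above 0. TPM keeps no depth, so precision rests on the spread between mice alone, and a gene that fills more of a library lowers all others in it. The annotation release was not given in the sources used here. Symbols came from GENCODE M39, which held 56236 of the identifiers, and promoters from RefSeq (GRCm38.p6).

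Genes that reached 0.5 TPM in 3 or more mice of a fit were tested on log2(TPM + 0.5) with limma 3.58.1 in R 4.3.3 (trended prior variance). The 0.5 TPM added before taking logs understates changes of low genes. The tissue contrasts and the difference of the D + Q effects came from 1 fit of 4 group means over 15 mice. The TA treatment fit (8 mice) had 1 surrogate variable from an iteratively re-weighted procedure of 5 rounds, and the heart fit (7 mice) had labelled sex, as in the study's methods. P-values were adjusted by Benjamini-Hochberg over all genes tested, and the procedure was tested on simulated data. Python 3.11.15, pandas 2.3.3 and matplotlib 3.10.9 served for summaries and plots.

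The 43 genes and the further lists were chosen with earlier results of these data known. Values in each mouse are given for the gene with the highest mean of each of the 8 roles, for Mki67, Top2a and Lmnb1, and for the 3 genes with the smallest p in each direction of each comparison. Pathway lists are given by counts and their 2 genes with the smallest p, except that Cdt1 is set beside its inhibitor and Cdkn1a and Gmnn are followed into the D + Q groups, chosen after their values were seen. Alternatives were other pseudocounts, filters, scaling and covariates, a replicate block, an untrended prior, calls by adjusted p alone, and each mouse left out in turn.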

Additional observations from a re-analysis of the deposited data

Results flagged for a closer look

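Of 129 groups of 4 mice examined, 1 for each gene and group, 7 held a mouse whose gap to its nearest neighbour was too large a share of the range of the group by Dixon's criterion at 95%. Chance flags about 1 in 20 groups, or 6.45 of 129, so the number of flags is what chance gives. Groups of 3 were not examined.

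D + Q TA replicate 3 held Ccne2 at 9.80 TPM, above the 4.25 to 4.89 TPM of the other 3 mice. D + Q TA replicate 1 stood high for 2 genes, Foxm1 at 1.31 TPM against 0.502 to 0.614 TPM and Bub1b at 0.829 TPM against 0.239 to 0.305 TPM. Vehicle TA replicate 4 held Mcm4 at 1.93 TPM, below the 2.97 to 3.17 TPM of the others. Lmnb1 stood high in vehicle TA replicate 1, at 4.36 TPM against 3.52 to 3.61 TPM, and in vehicle heart replicate 2, at 2.61 TPM against 2.13 to 2.21 TPM. Vehicle heart replicate 1 held Ube2c at 1.95 TPM, above the 1.30 to 1.35 TPM of the others.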

How the results depend on the processing

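Of 633 alternative fits of 30 named fold changes, 628 kept their direction and their side of the threshold, 4 lost a call and 1 reversed. Some of these fits could not change a direction. In a tissue contrast, leaving out a mouse of the other treatment moves only the error and adjusted p of a gene. Of the 30, 19 were not called to begin with. Tpx2 and Cdc20 in D + Q mice, not among the 30, lost their calls in 5 of 15 and 11 of 15 fits without 1 mouse, and in 6 of 10 and 6 of 9 other settings. All 5 losses of Tpx2 were in fits without a mouse of the D + Q groups, which hold 4 TA and 3 hearts. With the atrial markers as a covariate, Mcm4 in heart went from -0.25 to 0.147 (adjusted p = 0.866), neither called, as the median over all genes went from -0.0025 to 0.36. Genes lower in D + Q TA than in D + Q heart fell from 4 to 2 with sex read from expression, and over all genes from 2847 to 1889. Leaving out 1 mouse gave 5 to 7 genes higher and 2 to 3 lower in vehicle mice, 3 to 6 higher and 3 to 4 lower in D + Q mice, and 0 in every treatment comparison. Over all 17683 to 17790 genes these fits called 3474 to 4533 higher and 2243 to 2748 lower in vehicle mice. In D + Q mice they called 3252 to 4275 higher and 2486 to 2882 lower. For D + Q within a tissue they called at most 1 gene in each direction in TA, and at most 64 higher and 72 lower in heart. The mean log2 level of the list was 0.48, 0.41, 0.35 and 0.27 in vehicle TA, D + Q TA, vehicle heart and D + Q heart with a pseudocount of 0.1, and 1.34, 1.31, 1.27 and 1.23 with a pseudocount of 1. Median-of-ratios scaling moved it to 0.90 in vehicle heart and 0.85 in D + Q heart. The factors that divide TPM ran from 0.956 to 1.28 in vehicle TA and from 0.894 to 1.04 in vehicle heart. In D + Q mice they ran from 0.918 to 1.11 in TA and from 0.892 to 0.992 in heart. Scaled heart means therefore cannot be set beside unscaled TA means, and the order of the tissues on this mean is not fixed. Levels near 0.5 TPM move most with the pseudocount, and without read counts their counting error is unknown.

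The replicate numbers did not pair the mice. Mice with the same number had correlations of their deviations from the group means of -0.279 to 0.032 in TA and -0.035 to 0.021 in heart, and no mouse correlated best with its own number. With the replicate block, 5 genes were higher and 2 lower in vehicle TA, 3 were higher and 2 lower in D + Q TA, and 0 were called with D + Q in TA, in heart or in the difference between them. Of all 17868 genes, 2214 were higher and 1352 lower in vehicle TA under the block, and 2468 and 1558 in D + Q TA. The 5 in vehicle TA include a gene not called in the main fit, since Ccne2 lost its call. The block ended the calls of Ccne2 in vehicle mice (1.20, adjusted p = 0.0969) and of Hmgb2 (-1.16, adjusted p = 0.103), Tpx2 (0.64, 0.123) and Cdc20 (-0.46, 0.314) in D + Q mice.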
